A study of Mus musculus with 10 samples.

Results

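A set of 40 genes of the cell cycle machinery were followed in mouse kidneys with Lkb1 (gene symbol Stk11) deleted in tubule cells and in control kidneys. The genes were chosen by their known roles and not by a threshold on the measured values, but with earlier results of these data known. They hold 8 cyclins and cyclin-dependent kinases of the G1 phase and of entry into DNA synthesis. The others are 11 genes of DNA replication and nucleotide supply (S phase) and 21 genes of the G2 phase and mitosis. A gene was measured where a row of the array carried its symbol and no other, and its value was the mean of such rows. This gave 37 of the 40 genes, among 30142 measured in all, with 7 of G1, 10 of S phase and 20 of G2 and mitosis. The rows of Ccnd1 and Mcm7 also carry microRNA symbols and were not used, and Ccnb1 is not analysed here.

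RNA came from whole kidneys of mice 5 weeks old, 5 in each group, hybridised to 1 Affymetrix whole-transcript array each. Knockout mice (titled Kidney_STK11_KD) carried floxed Lkb1 and the KspCre transgene, in which the promoter of the tubule cadherin Cdh16 drives Cre recombinase, so cells outside the tubules keep the gene. Control mice (titled Kidney_WT) were littermates without Cre whose floxed allele was present in 1 or both copies, so every mouse of both groups carried floxed Lkb1 and only knockouts carried Cre, whose own effect cannot be told apart from that of losing Lkb1. The labels give the strain as C57Bl/6N, while the protocol calls the background of the floxed mice mixed. The labels call the knockouts a knockdown, and the design text names a dog cell line that none of these mouse samples come from.

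A dividing cell passes in order through G1, S phase, G2 and mitosis. D-type cyclins with Cdk4 or Cdk6, then E-type cyclins with Cdk2, release E2F transcription factors from the retinoblastoma proteins, and E2F switches on genes for replication. A later wave, made by the B-MYB and FOXM1 factors on the MuvB complex, switches on the genes of mitosis. MuvB binds an element called the CHR (cell cycle genes homology region), usually next to CCAAT boxes bound by NF-Y. At rest the same genes are held down by the DREAM complex through CHR and E2F sites. The kidney tubule of an adult divides rarely, a young kidney is still growing, and tubule cells divide again after injury.

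The 3 classes differ in the letters of their promoters, which are shown first. Whether these letters bear on the values of the genes in these kidneys was not tested. RefSeq promoter windows on GRCm38.p6 (the build mm10), running from 250 bases before to 50 after a transcript start, were present for 29 of the 37 measured genes. Capitals in the sequences mark matches on either strand to the CHR letters TTTGAA or TTCGAA, to the CCAAT box, or to an E2F site spelled TTTGGCGC, TTTCCCGC, TTTGCCGC or TTTCGCGC, and overlapping matches run together. Ccnb2, Mki67 and Top2a stand for mitosis, Mcm6 for S phase, and Cdk6 is the gene that changed. The windows of Ccnb2 (chr9:70421505-70421804, minus strand), Mki67 (chr7:135716330-135716629, minus strand), Top2a (chr11:99024140-99024439, minus strand), Mcm6 (chr1:128359656-128359955, minus strand) and Cdk6 (chr5:3343643-3343942, plus strand) read as follows, each 5′ to 3′ on its gene's strand.
Ccnb2: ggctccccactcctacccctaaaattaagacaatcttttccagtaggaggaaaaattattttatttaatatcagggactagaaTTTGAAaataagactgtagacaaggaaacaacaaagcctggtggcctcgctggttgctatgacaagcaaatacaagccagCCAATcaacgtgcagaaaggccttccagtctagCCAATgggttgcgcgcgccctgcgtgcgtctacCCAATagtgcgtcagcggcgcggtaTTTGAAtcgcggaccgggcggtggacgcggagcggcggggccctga
Mki67: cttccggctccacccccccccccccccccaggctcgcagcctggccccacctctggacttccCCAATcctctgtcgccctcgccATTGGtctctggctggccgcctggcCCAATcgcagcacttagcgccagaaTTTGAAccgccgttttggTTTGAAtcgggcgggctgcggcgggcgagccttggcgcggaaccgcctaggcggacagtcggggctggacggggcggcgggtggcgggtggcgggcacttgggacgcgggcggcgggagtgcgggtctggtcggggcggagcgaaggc
Top2a: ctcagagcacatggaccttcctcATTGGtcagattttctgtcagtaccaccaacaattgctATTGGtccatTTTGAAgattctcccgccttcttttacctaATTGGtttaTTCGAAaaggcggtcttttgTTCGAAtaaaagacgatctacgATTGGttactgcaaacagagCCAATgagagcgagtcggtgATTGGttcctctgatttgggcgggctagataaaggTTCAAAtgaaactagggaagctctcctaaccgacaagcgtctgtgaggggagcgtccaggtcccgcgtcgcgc
Mcm6: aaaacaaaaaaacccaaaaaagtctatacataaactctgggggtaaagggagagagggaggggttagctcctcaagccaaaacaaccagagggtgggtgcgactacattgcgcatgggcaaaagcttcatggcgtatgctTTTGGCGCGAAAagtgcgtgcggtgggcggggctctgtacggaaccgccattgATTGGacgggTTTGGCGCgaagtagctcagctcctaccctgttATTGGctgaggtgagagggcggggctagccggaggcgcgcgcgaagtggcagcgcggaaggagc
Cdk6: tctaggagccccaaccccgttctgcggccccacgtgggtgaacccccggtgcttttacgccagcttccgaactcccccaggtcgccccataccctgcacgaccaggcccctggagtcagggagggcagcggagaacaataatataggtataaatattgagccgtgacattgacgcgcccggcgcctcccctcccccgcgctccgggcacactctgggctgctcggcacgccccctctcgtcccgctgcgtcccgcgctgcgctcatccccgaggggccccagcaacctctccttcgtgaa

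Counts are of genes with a window, and a gene with several windows, such as Ccnd3, was counted where any of them held a match. A CHR match was found for 12 of 15 mitosis genes (80.0%), 1 of 9 S phase genes (11.1%) and 0 of 5 G1 genes. The share was 21.7% of the 27025 genes with a window, which had 32851 windows in all. All 12 of those mitosis genes also had a CCAAT box, a pair found for 9.65% of all genes with a window. CCAAT alone was common in both later classes, at 13 of 15 mitosis genes and 7 of 9 S phase genes, against 41.1% of all genes. E2F letters were found for 3 of 9 S phase genes (Mcm3, Mcm5 and Mcm6), 1 of 15 mitosis genes (Cdk1) and 1 of 5 G1 genes (Cdk2), against 2.60% of all genes. The windows of Top2a and Mki67 held 4 and 2 CHR matches and that of Cdk6 held no match to any of these letters. Such a match is only a string of letters and does not show that a factor binds there.

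**Figure D1:**
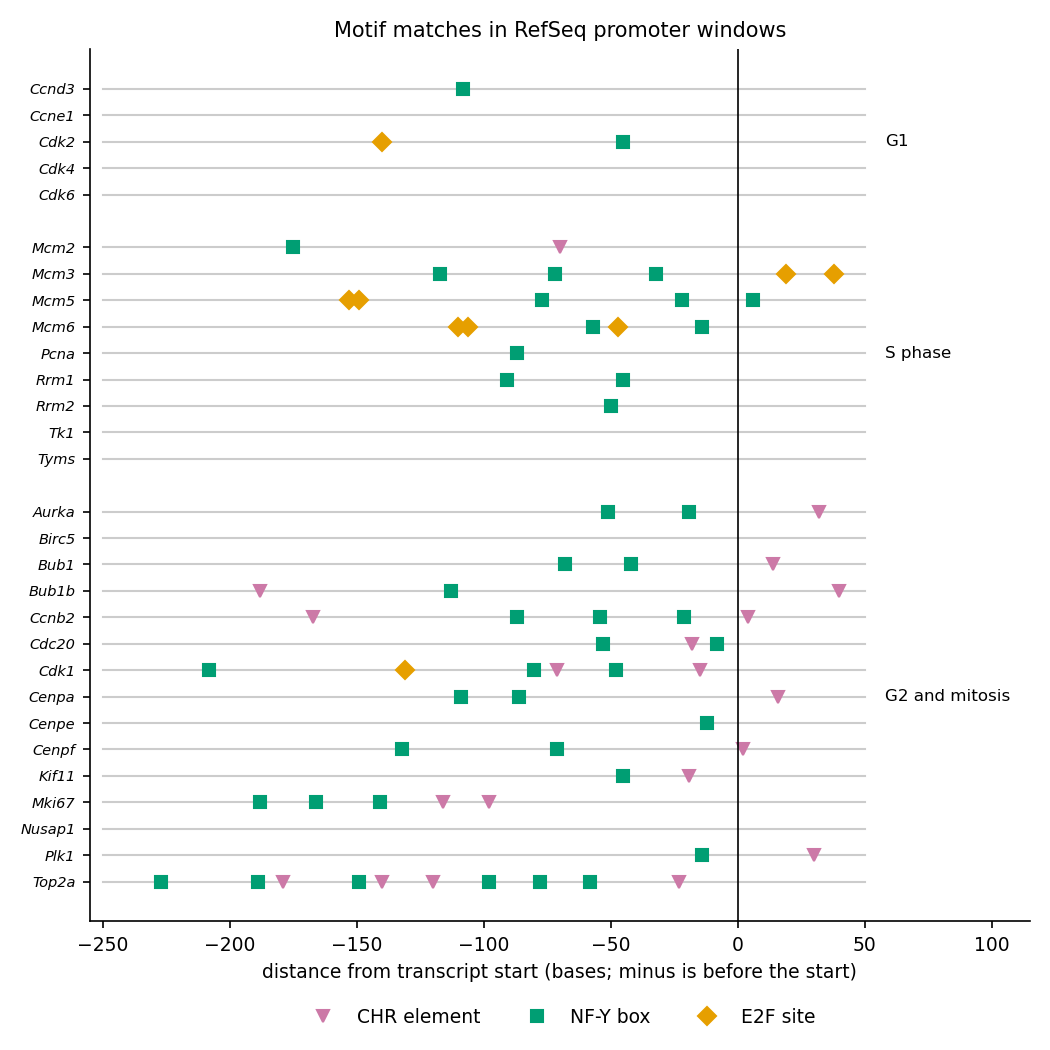
Matches to the CHR element, the CCAAT box (shown as NF-Y box) and the E2F site in the promoter windows of 29 measured cell cycle genes, each placed by its first base against distance from the transcript start in bases. CHR matches lie in 12 of the 15 mitosis windows and in 1 of the 9 S phase windows.

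Cdk6 was the only one of the 37 genes that passed the test for a difference between knockout and control kidneys (limma, two-sided, p-values adjusted by Benjamini-Hochberg over all 30142 genes, threshold 0.05). Over all genes 5.35% passed as higher and 2.67% as lower, 8.03% in all, so 1 of 37 is not above the share over the whole array. Before adjustment 6 of the 37 had p under 0.05, all of them higher in knockouts, where 10.9% of all genes were higher and 12.0% lower by that measure. Differences are given as knockout minus control in log2 units, on values made by the RMA method, and a fold is 2 to the power of that difference. Since whole kidney was measured, a change in the number of dividing cells and a change in RNA per cell cannot be told apart.

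**Figure D2:**
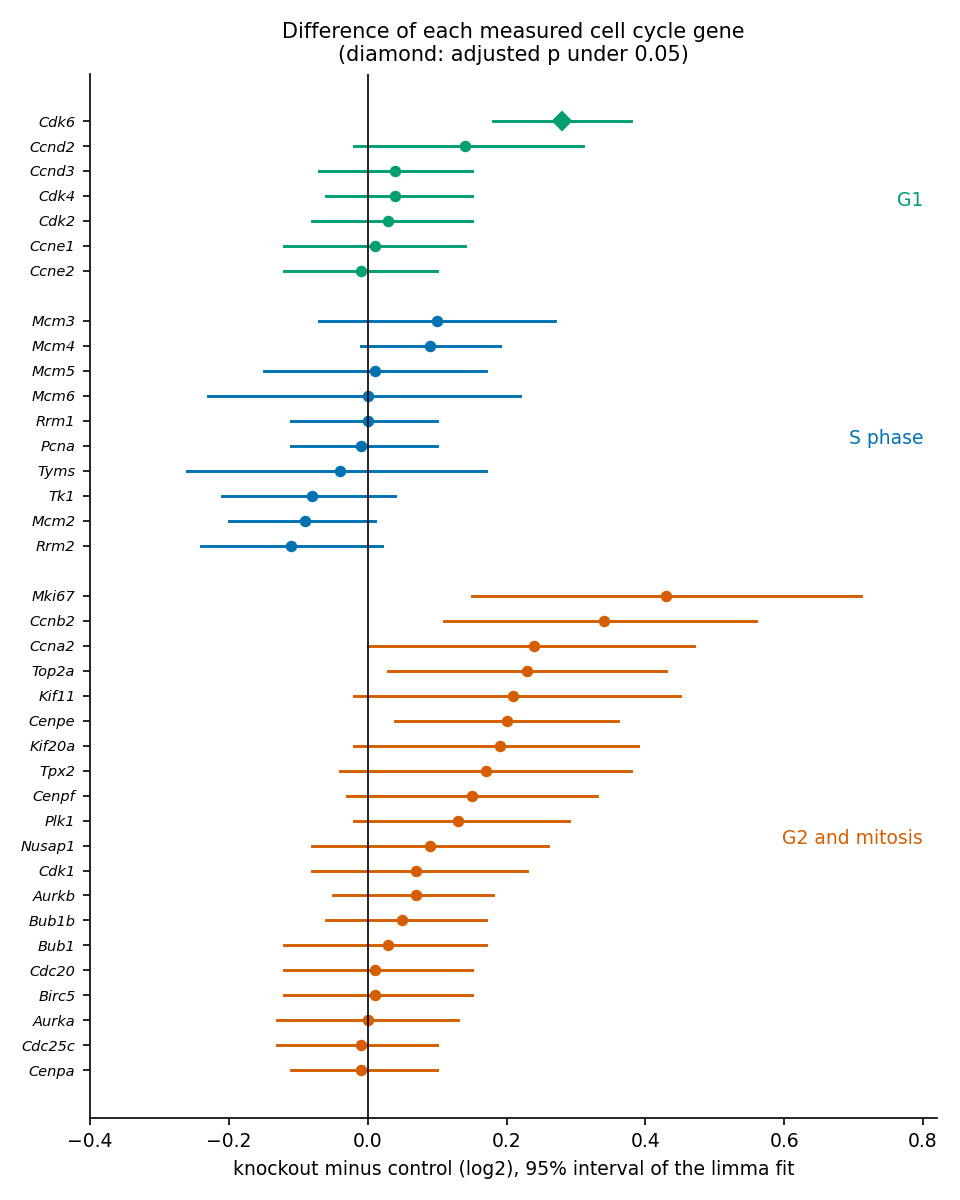
Difference between knockout and control kidneys for each of the 37 measured genes, in log2 units (horizontal axis), with the 95% interval of the limma fit, 5 kidneys per group. Cdk6, drawn as a diamond, has adjusted p = 0.00415, and the mitosis genes reach from -0.01 to 0.43 while the S phase genes reach from -0.11 to 0.10.

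Among the G1 genes, Cdk6, a partner kinase of the D-type cyclins, was higher in knockouts. The gene lies on chromosome 5 at 3341004 to 3531008. The 5 control kidneys measured 8.14, 8.26, 8.25, 8.30 and 8.34, and the 5 knockouts measured 8.54, 8.62, 8.49, 8.46 and 8.58. Every knockout lay above every control, as for 5.07% of all genes. Controls averaged 8.26 ± 0.07 and knockouts 8.54 ± 0.07 (SD, n = 5 each). The difference was 0.28 (SE 0.05, adjusted p = 0.00415), or 1.21-fold with a 95% interval of 1.13 to 1.31.

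The other measured G1 genes did not pass. Ccnd2, a D-type cyclin, measured 7.47, 7.49, 7.60, 7.63 and 7.29 in controls and 7.65, 7.83, 7.44, 7.63 and 7.66 in knockouts. The groups overlapped, since knockout 3 lay below control 4 (log2 difference 0.14, SE 0.08, adjusted p = 0.282). Cdk4, the close relative of Cdk6, measured 9.33, 9.26, 9.13, 9.19 and 9.12 in controls and 9.25, 9.28, 9.17, 9.24 and 9.31 in knockouts. Its highest kidney was a control (0.04, 95% interval -0.06 to 0.15, adjusted p = 0.627), and whether Cdk4 and Cdk6 differed in their response was not tested. The remaining D-type cyclin Ccnd3 and the S phase entry kinase Cdk2 differed by 0.04 and 0.03, with SE 0.05 for each. The E-type cyclins Ccne1 and Ccne2 were dim, with control means above only 48.0% and 38.5% of the 5222 negative control probe sets, so no fold is given for them.

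None of the 10 S phase genes passed, and none had an unadjusted p under 0.05. Over all genes 8.03% passed, so a list of 10 would hold few or no calls at that share. Before adjustment 10.9% of all genes were higher and 12.0% lower. Rrm2, the regulated subunit of the enzyme that makes deoxynucleotides, measured 6.96, 7.12, 6.84, 6.86 and 6.87 in controls and 6.73, 6.75, 6.89, 6.88 and 6.82 in knockouts. All 5 knockouts lay below the control mean, but knockouts 3 and 4 lay above 3 of the controls (log2 difference -0.11, SE 0.06, adjusted p = 0.274). Mcm2, a subunit of the replicative helicase, measured 7.53, 7.39, 7.63, 7.51 and 7.44 in controls and 7.40, 7.36, 7.44, 7.39 and 7.45 in knockouts. It too had all 5 knockouts below the control mean and overlapping groups (-0.09, SE 0.05, adjusted p = 0.285).

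The helicase subunits did not share a direction. Mcm4 measured 6.70, 6.77, 6.79, 6.82 and 6.73 in controls and 6.73, 6.91, 6.90, 6.83 and 6.88 in knockouts, so that 4 of 5 knockouts lay above every control (0.09, SE 0.05, adjusted p = 0.286). Mcm3 measured 6.65, 6.34, 6.59, 6.34 and 6.32 in controls and 6.52, 6.59, 6.66, 6.57 and 6.39 in knockouts. Its controls spread over most of the range of the knockouts (0.10, SE 0.08, adjusted p = 0.456). Mcm5 differed by 0.01 (95% interval -0.15 to 0.17) and Mcm6 had a ratio of 0.998 (95% interval 0.853 to 1.17).

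Tk1, the salvage kinase that supplies thymidine nucleotides, measured 6.78, 6.59, 6.59, 6.56 and 6.64 in controls and 6.62, 6.49, 6.67, 6.52 and 6.45 in knockouts. The groups overlapped, with control 1 highest (-0.08, SE 0.06, adjusted p = 0.413). Tyms, which makes thymidylate, differed by -0.04 (SE 0.10), and its controls alone ran from 6.87 to 7.31. Pcna, the sliding clamp of the replication fork, and Rrm1, the partner of Rrm2, had ratios of 0.996 and 0.997, with 95% intervals of 0.926 to 1.07 and 0.928 to 1.07.

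The genes of G2 and mitosis were the class with the largest differences, although none of the 20 passed, where 8.03% of all genes did. The 5 with the smallest p were Mki67, Ccnb2, Cenpe, Top2a and Ccna2. All were higher in knockouts at an unadjusted p under 0.05, as 10.9% of all genes were. Mki67, which encodes the proliferation antigen Ki-67 and lies on chromosome 7 at 135689784 to 135716450, measured 7.56, 7.80, 7.51, 7.28 and 7.34 in controls. In knockouts it measured 7.63, 7.88, 8.25, 8.19 and 7.69. Knockouts 2, 3 and 4 lay above all controls, while knockouts 1 and 5 lay below control 2. Controls averaged 7.50 ± 0.21 and knockouts 7.93 ± 0.28 (SD, n = 5 each). The difference was 0.43 (SE 0.13, adjusted p = 0.0639), or 1.35-fold with a 95% interval of 1.11 to 1.64.

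On its own, Mki67 gave p = 0.0317 by exact permutation of the group labels (two-sided), where 0.00794 is the smallest p possible. Its adjusted p by limma fell below 0.05 when control 2 (0.0372), knockout 1 (0.0415) or knockout 5 (0.0349) was left out. These are its highest control and its lowest knockouts, so leaving out any of them raises the difference by construction. Leaving out any other single kidney gave an adjusted p of 0.102 to 0.146. The adjusted p was also below 0.05 when arrays were centred on their medians (0.0467). It rose to 0.338, with a difference of 0.23, when knockouts 3 and 4 were left out. That pair was picked after the values were seen, as the highest knockouts for most mitosis genes. Leaving it out, here and below, therefore lowers the differences of those genes by construction.

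Ccnb2, a B-type cyclin that activates Cdk1, had its knockouts in the same order as Mki67, and control 2 was again the highest control. It measured 6.51, 6.87, 6.61, 6.53 and 6.52 in controls and 6.61, 6.95, 7.16, 7.14 and 6.86 in knockouts. Knockouts 2, 3 and 4 lay above all controls, knockout 5 lay just below control 2, and knockout 1 lay at the level of control 3. Controls averaged 6.61 ± 0.15 and knockouts 6.95 ± 0.23 (SD, n = 5 each). The difference was 0.34 (SE 0.10, adjusted p = 0.0672). Its adjusted p was 0.0321 without control 2, its highest control, and 0.0185 without knockout 1, its lowest knockout. Both removals raise the difference by construction. Without any other single kidney the adjusted p was 0.0618 to 0.157. It was 0.366, with a difference of 0.20, without knockouts 3 and 4.

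Cenpe, a kinesin that moves chromosomes to the spindle equator, measured 5.42, 5.53, 5.43, 5.38 and 5.48 in controls and 5.42, 5.57, 5.79, 5.84 and 5.62 in knockouts. All knockouts but the first lay above every control (0.20, SE 0.07, adjusted p = 0.123). Its signal was near background, with a control mean above 56.1% of the negative control probe sets. Without knockout 1, its lowest knockout, it passed (adjusted p = 0.0393), a removal that raises the difference by construction. Without any other single kidney it did not pass (adjusted p 0.113 to 0.259). Without knockouts 3 and 4 its difference was 0.09.

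Top2a, the topoisomerase that untangles sister chromosomes, measured 5.76, 5.86, 5.68, 5.57 and 5.61 in controls and 5.81, 5.83, 6.13, 6.15 and 5.70 in knockouts. The other 3 knockouts lay within the range of the controls (0.23, SE 0.09, adjusted p = 0.160). Ccna2, the A-type cyclin of S phase and G2, measured 6.49, 6.59, 6.43, 6.15 and 6.27 in controls and 6.42, 6.52, 6.81, 6.90 and 6.46 in knockouts. Again only knockouts 3 and 4 exceeded every control (0.24, SE 0.11, adjusted p = 0.212). Without these 2 kidneys both genes differed by 0.08.

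**Figure D3:**
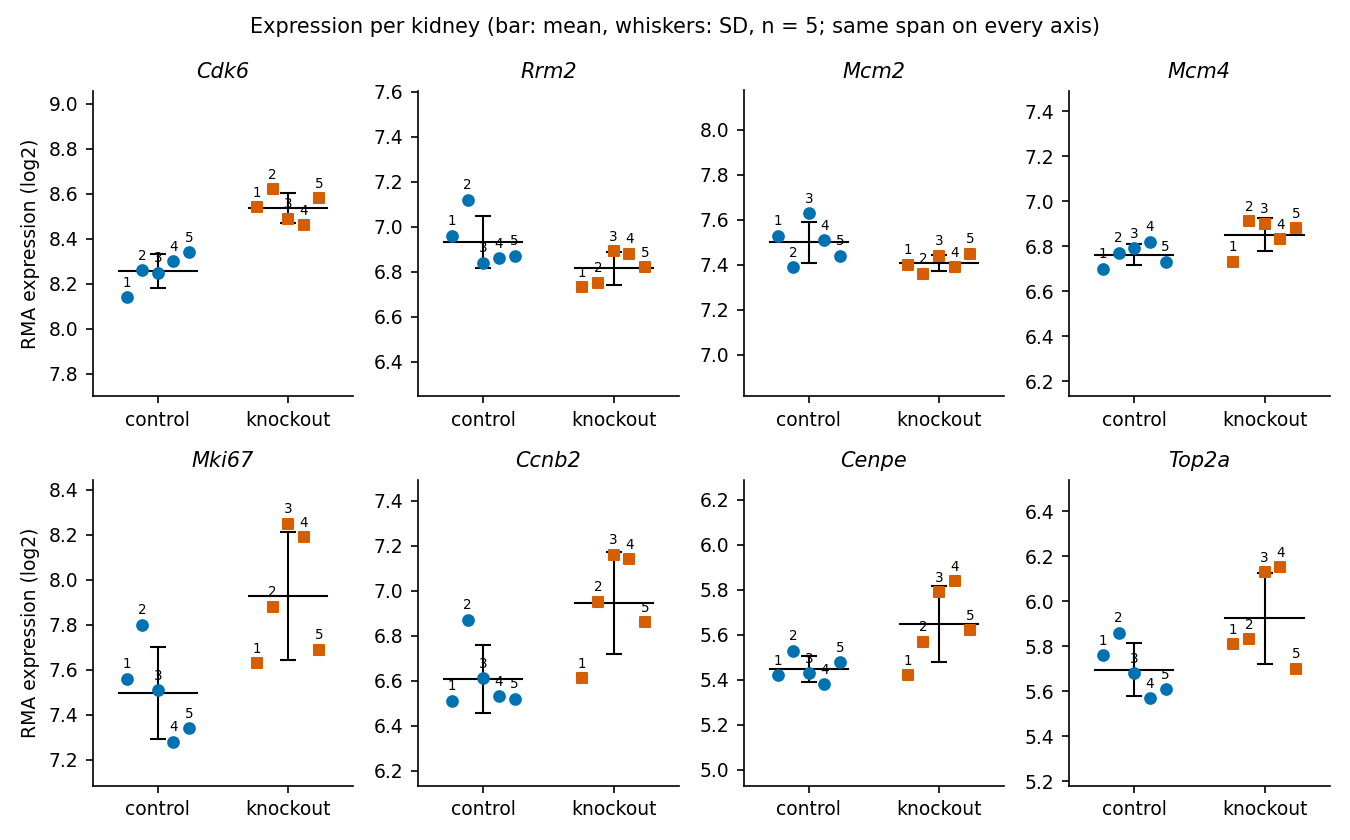
RMA expression (log2, vertical axis) of Cdk6, of 3 S phase genes and of 4 mitosis genes in each kidney, numbered 1 to 5 within its group, with group mean and SD (n = 5). Cdk6 separates the groups, whereas knockouts 3 and 4 stand highest for the 4 mitosis genes and control 2 is the highest control.

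The remaining 15 mitosis genes had differences from -0.01 to 0.21 and all had overlapping groups. The spindle motors Kif11 (0.21, SE 0.11) and Kif20a (0.19, SE 0.09) were at the upper end, with Tpx2, an activator of Aurora A on the spindle (0.17, SE 0.10), Cenpf of the outer kinetochore (0.15, SE 0.08) and the mitotic kinase Plk1 (0.13, SE 0.07). Their adjusted p lay between 0.253 and 0.314. Nusap1, which bundles spindle microtubules, differed by 0.09, Cdk1, the kinase of mitotic entry, by 0.07, Aurkb of the chromosomal passenger complex by 0.07, and the checkpoint gene Bub1b by 0.05, each with SE 0.05 to 0.08. Other members of the class stood at or near no difference: Aurka had a ratio of 0.999, and Cdc20, the activator of the anaphase-promoting complex, the passenger subunit Birc5 and the centromeric histone Cenpa had ratios of 1.01, 1.01 and 0.994. The phosphatase Cdc25c and the checkpoint kinase Bub1 were dim (control means above 33.5% and 25.2% of negative control probe sets), and no fold is given for them. Of all mitosis genes with a promoter window, the 12 with a CHR match had a median difference of 0.10 (from -0.01 to 0.43). The 3 without a match had a median of 0.09 (from 0.01 to 0.20). Other mitosis genes, such as Ccna2 and Kif20a, had no window. With only 3 genes without a match, these medians cannot tell whether a match goes with the size of the difference.

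The kidneys of the knockout group differed more from each other in most of the 20 mitosis genes than the controls did. Knockouts 3 and 4 were the 2 highest of the 5 knockouts for 17 of the 20 mitosis genes, and the 2 highest of all 10 kidneys for 12. The same pair led the knockouts for 3 of 10 S phase genes, 0 of 7 G1 genes and 7.10% of all genes. Knockout 1 was the lowest knockout for 12 of the 20 and knockout 5 for the other 8. Among controls, control 2 was highest for 12 of 20 and control 4 lowest for 12. The SD was larger in knockouts than in controls for 16 of 20 mitosis genes (median SD 0.14 against 0.11), but for 3 of 10 S phase genes, and for 47.6% of all genes. The pair was noticed in these values, so the counts describe the kidneys and are no test. No label sets knockouts 3 and 4 apart from the others.

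**Figure D4:**
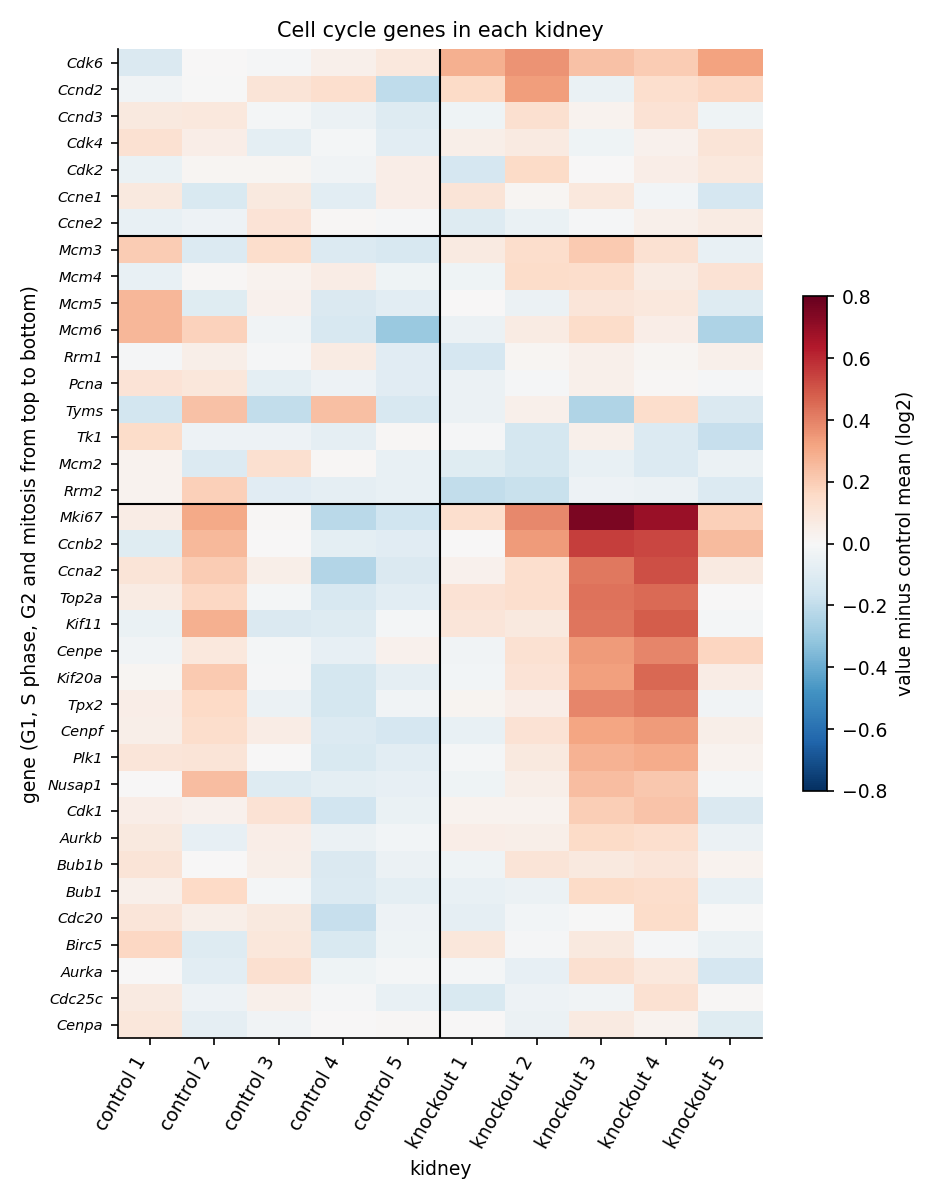
Each gene's value minus its control mean (colour, log2 units) in the 10 kidneys (columns), with the G1, S phase and mitosis genes as blocks of rows. The block of mitosis genes is reddest in knockouts 3 and 4, where Mki67 measured 8.25 and 8.19, and Cdk6 in the first row is raised in all 5 knockouts.

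Set side by side, S phase and mitosis genes gave different pictures. The median difference was -0.01 over the 10 S phase genes and 0.11 over the 20 mitosis genes, beside 0.04 over the 7 G1 genes and -0.03 over all genes. Knockout means were higher for 17 of 20 mitosis genes, 6 of 7 G1 genes and 3 of 10 S phase genes, against 38.2% of all genes. Averaged over its genes and taken relative to the control mean, the mitosis class stood at 0.01, 0.08, 0.27, 0.29 and 0.01 in knockouts 1 to 5, and at 0.05, 0.10, 0.02, -0.11 and -0.06 in controls. The S phase class stood at -0.05, -0.01, 0.04, 0.02 and -0.07 in knockouts, inside the range of -0.10 to 0.08 in controls. Thus knockouts 3 and 4 lay above all controls for mitosis genes and within the controls for S phase genes. Without these 2 kidneys the mitosis median was 0.02 and the S phase median -0.04. The mitosis median had to fall, since this pair was picked for its high mitosis values. These medians come from genes that were chosen with earlier results of these data known, and no p is given for them.

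**Figure D5:**
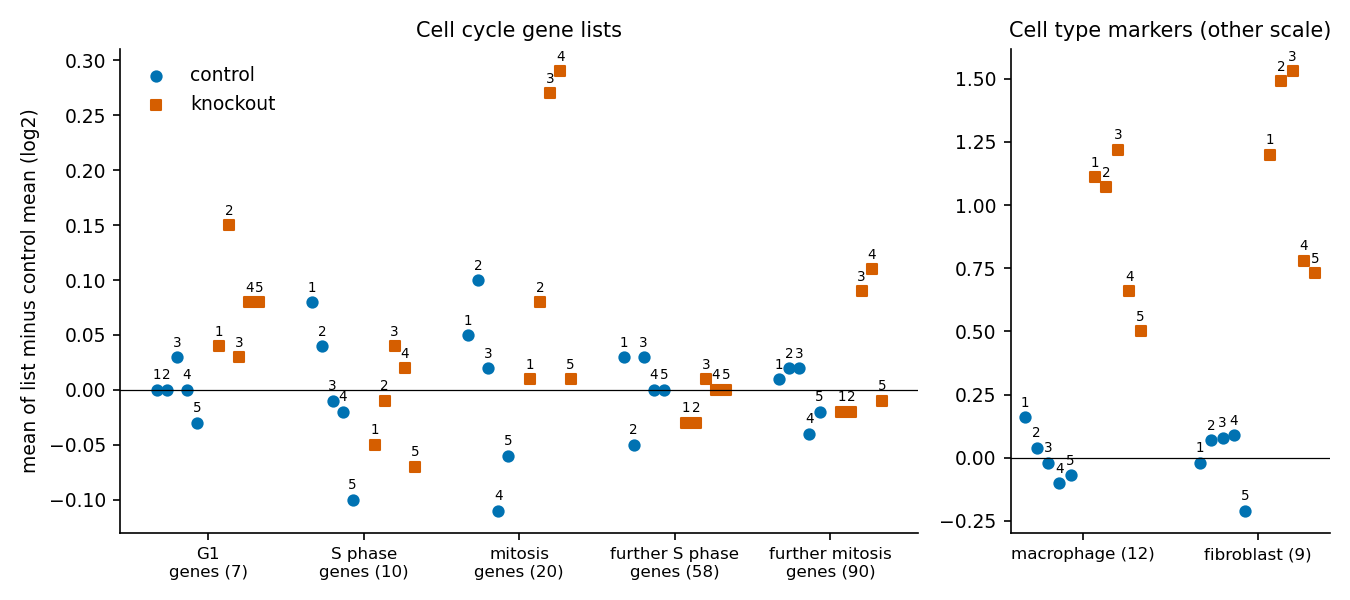
Mean of each gene list in each kidney minus its control mean (log2 units, vertical axis), with kidneys numbered within their group; marker lists of macrophages and fibroblasts are drawn at right on another scale. Knockouts 3 and 4 stand at 0.27 and 0.29 for the 20 mitosis genes and at 0.09 and 0.11 for 90 further mitosis genes, while macrophage markers are highest in knockouts 1, 2 and 3.

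Further genes of the same pathways were taken from lists that hold none of the 40. Those lists too were chosen with earlier results of these data known. Of 90 measured further genes of mitosis (95 listed), 2 rose, 1 fell and 87 did not pass, where 5.35% of all genes passed as higher and 2.67% as lower. The median difference was 0.03. Unadjusted p was under 0.05 for 9 genes that were higher and 5 that were lower, against 10.9% and 12.0% of all genes. Dim genes were kept in this list and in the S phase list below. Examples are Depdc1a here and Orc1 there (control means above 14.6% and 29.7% of negative control probe sets). Arhgap11a measured 6.92, 6.91, 7.02, 6.96 and 6.98 in controls and 7.10, 7.25, 7.39, 7.33 and 7.20 in knockouts. Every knockout exceeded every control (0.30, SE 0.06, adjusted p = 0.00648), and knockouts 3 and 4 were again highest. Smc2, a core subunit of the condensin complex that compacts chromosomes, measured 5.77, 5.90, 5.84, 5.75 and 5.71 in controls and 5.94, 6.04, 6.19, 6.18 and 5.92 in knockouts. The groups just failed to overlap (0.26, SE 0.06, adjusted p = 0.0269), and the call was lost when any of controls 1, 4 and 5 or knockouts 2, 3 and 4 was left out (adjusted p 0.0590 to 0.0700).

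Spag5, a spindle and kinetochore protein, was the gene of that list that fell. It measured 6.43, 6.47, 6.45, 6.26 and 6.16 in controls and 6.05, 6.09, 6.10, 6.06 and 6.05 in knockouts, with no overlap (-0.28, SE 0.06, adjusted p = 0.0135). Unlike the mitosis genes above, its spread lay in the controls (SD 0.14) and not in the knockouts (SD 0.03). Averaged per kidney, this list stood at 0.09 and 0.11 in knockouts 3 and 4 and from -0.02 to -0.01 in the other knockouts, against -0.04 to 0.02 in controls. Knockouts 3 and 4 led the knockouts for 52 of its 90 genes (57.8%), against 7.10% of all genes.

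Of 58 measured further S phase genes (60 listed), 0 rose, 1 fell and 57 did not pass, and the median difference was -0.01. Over all genes 5.35% passed as higher and 2.67% as lower. Unadjusted p by limma was under 0.05 for 1 gene that was higher and 3 that were lower, against 10.9% and 12.0% of all genes. The gene that fell was Gmnn, which encodes geminin, the inhibitor that stops DNA from being licensed again within a cycle. It measured 6.89, 6.81, 6.95, 6.83 and 6.83 in controls and 6.47, 6.64, 6.55, 6.60 and 6.77 in knockouts, with every knockout below every control, as for 3.50% of all genes (-0.26, SE 0.06, adjusted p = 0.0154). Per kidney this list ran from -0.03 to 0.01 in knockouts and from -0.05 to 0.03 in controls. Knockouts 3 and 4 led the knockouts for 14 of its 58 genes (24.1%), which is also above the 7.10% of all genes. Without knockouts 3 and 4, leaving 3 knockouts, Arhgap11a, Smc2, Spag5 and Gmnn each missed the threshold (adjusted p = 0.0545, 0.192, 0.0779 and 0.114), with differences of 0.23, 0.17, -0.29 and -0.24.

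Among 24 measured CDK inhibitors, RB proteins, DREAM subunits and E2F factors (25 listed), 0 passed in either direction by limma and the median was 0.02. Over all genes 5.35% passed as higher and 2.67% as lower, so a list this short would hold few calls at those shares. Unadjusted p was under 0.05 for 1 gene that was higher and 2 that were lower, against 10.9% and 12.0% of all genes. Cdkn1a, the p53-induced CDK inhibitor p21, measured 9.27, 9.95, 8.67, 8.85 and 8.78 in controls and 9.59, 9.86, 9.93, 10.02 and 9.09 in knockouts. Control 2, the highest control for most mitosis genes, was also the highest control here and reached the level of knockouts 2, 3 and 4 (0.59, SE 0.23, adjusted p = 0.151). It passed when control 2 was left out (0.80, adjusted p = 0.0226) or knockout 5 was (0.74, adjusted p = 0.0496). These are its highest control and its lowest knockout, so either removal raises the difference by construction. Without any other single kidney Cdkn1a did not pass (adjusted p 0.194 to 0.297). Tfdp2, a DNA-binding partner of E2F, measured 8.40, 8.53, 8.37, 8.56 and 8.37 in controls and 8.20, 8.25, 8.34, 8.32 and 8.34 in knockouts (-0.16, SE 0.05, adjusted p = 0.0838). Cdkn2c, the inhibitor p18 of Cdk4 and Cdk6, measured 6.82, 6.70, 6.63, 6.80 and 6.76 in controls and 6.53, 6.51, 6.49, 6.62 and 6.72 in knockouts (-0.17, SE 0.06, adjusted p = 0.0928). For Tfdp2 every knockout lay below every control, and for Cdkn2c the groups overlapped.

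Markers of other cells of the kidney moved between the groups as well. All 12 macrophage markers and all 9 measured fibroblast and matrix markers rose, with medians of 0.88 and 1.28 (the brightest were Csf1r and Ctss, and Pdgfrb and Dcn). Per kidney the macrophage list stood at 1.11, 1.07, 1.22, 0.66 and 0.50 in knockouts 1 to 5 and from -0.10 to 0.16 in controls, and the fibroblast list at 1.20, 1.49, 1.53, 0.78 and 0.73. Knockout 3 was high for both macrophage and mitosis genes and knockout 5 low for both, while knockout 4 had the highest mitosis mean with the second lowest macrophage mean, and knockout 1 one of the lowest mitosis means with the second highest macrophage mean. Cdk6 was raised in all 5 knockouts, as these 2 lists were, and its order among them was partly another. Knockout 5, lowest for both lists, had the second highest Cdk6 (8.58), and knockout 3, highest for both, had 8.49. Knockout 4, second lowest for both lists, had the lowest Cdk6 (8.46). Knockout 2, second highest for the fibroblast list, had the highest (8.62). Of 11 measured T, NK and B cell markers 2 rose (Cd3e and Cd4), with a median of 0.03. By limma 0 of 8 endothelial and 0 of 4 podocyte markers passed, with an unadjusted p under 0.05 for 1 and 0 of them. Over all genes 5.35% passed as higher and 2.67% as lower, so lists this short would hold few or no calls at those shares. Of 16 tubule markers 9 fell and 2 rose, with a median of -0.28 and knockouts at -0.34 to -0.16. Of 5 measured erythroid markers 1 fell, Slc4a1, which kidney intercalated cells also make and which is counted among the 16 tubule markers too. The part of any of these cell types in the values of Cdk6 or of the mitosis genes was not tested.

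Over the series the arrays had medians from 5.34 to 5.42 and correlations with each other of 0.992 to 0.998. Their negative control medians ran from 5.10 in control 3 to 5.37 in control 2. Control 2 also had the lowest median over genes (6.13). Whether this bears on its high values for mitosis genes was not tested. The brightest tubule markers, Slc34a1 and Umod, had control means of 13.23 and 13.16, near the top of the scale of these arrays (14.07 to 14.28), so the defining markers of the labelled tissue were present. Stk11 itself fell by 0.25 (SE 0.05, adjusted p = 0.00749) with no overlap between the groups. Which of its probes lie in deleted exons was not analysed here, and cells outside the tubules keep the gene. The share of tubule cells that lost it was not measured here. Replicates were separate mice, and the number of arrays limits the precision.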

How the data were processed

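The authors deposited 1 table of log2 expression values per transcript cluster, made with RMA (background correction, normalisation over the arrays, summary of probes) on the build mm10, per the submitters' processing notes; its software version is not named there, and the log2 scale was taken from the values. Of 72688 rows, 30604 carried a single gene symbol in the platform annotation (827 updated through Entrez identifiers), 2146 several and 39938 none. Rows were averaged per gene. Knockouts and controls were compared with limma 3.58.1 in R 4.3.3 (lmFit, eBayes with a mean-variance trend), two-sided, without covariates or filter, adjusted over all 30142 genes. The fit was tested on simulated data. A gene is called dim where its control mean exceeds less than 50% of 5222 negative control probe sets. The members and all gene lists were chosen with earlier results of these data known. Values per kidney are given for Mki67, for genes past the threshold, and for the 3 (G1) or 5 (S phase, mitosis) members with the smallest p; of the further lists, for genes past the threshold, or the 3 with the smallest p. Promoter windows and coordinates are from RefSeq, GRCm38.p6. The replicate numbers of the titles were not taken as pairs, since same-numbered deviations correlated at -0.08 to 0.31. Alternatives were other variance models, 2 rescalings, a filter on dim genes, the brightest row, the replicate number as a block, and leaving out each kidney; 1 more was added after the data were seen.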

Additional observations from a re-analysis of the deposited data

Results flagged for a closer look

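Single kidneys stood apart from the rest of their group in 3 of 74 groups of 5 values (37 genes in both groups), by a gap test that chance passes in about 5% of groups. For Ccnb2, control 2 measured 6.87, with the other controls at 6.51 to 6.61. For the spindle motor Kif11, control 2 measured 5.91, with the other controls at 5.51 to 5.61. For Rrm1, the large subunit of ribonucleotide reductase, knockout 1 measured 7.20, with the other knockouts at 7.35 to 7.37.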

How the results depend on the processing

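Cdk6 kept its direction and its side of the threshold under all 18 alternatives (differences 0.25 to 0.32, adjusted p 0.00321 to 0.0150). No member was called lower under any of them, and no called value changed direction; the median of the S phase genes, near 0, lay between -0.05 and 0.03. Members called higher numbered 1 as reported, 1 to 4 when single kidneys were left out, 2 with arrays centred on their medians (Cdk6 and Mki67), and 2 with the replicate number as a block (Cdk6 and Ccnb2, the latter with adjusted p = 0.0451). Mki67 ranged from 0.35 to 0.50 when single kidneys were left out (adjusted p 0.0349 to 0.146) and was 0.46 after median centring (adjusted p = 0.0467) and 0.43 with the replicate block (adjusted p = 0.0715). Over all genes, 1614 were higher and 806 lower as reported. Leaving out single kidneys gave 1089 to 1942 higher and 437 to 1470 lower, median centring gave 413 lower and raised the share of calls that were higher from 66.7% to 83.3%, moving the median of all genes from -0.03 to 0.00, and the block gave 1826 and 955. Leaving out knockouts 3 and 4, chosen after seeing the data, gave 659 and 226 with 3 knockouts in the fit. The difference between the medians of mitosis and S phase genes was 0.12 and ranged from 0.07 to 0.15 over 19 alternatives, including other class boundaries. Same-numbered kidneys deviated together at r = 0.25, 0.31, 0.10, -0.08 and 0.19, and 3 of 5 controls correlated best with their own number. Tfdp2 passed after quantile normalisation (adjusted p = 0.0339) and Cdkn2c without knockout 5, its highest knockout (adjusted p = 0.0293). The cause of these shifts was not tested. Cenpe and the dim genes had signals near those of the negative controls. Other mitosis genes lay little higher, such as Bub1b, Kif11 and Top2a (control means above 58.5%, 60.3% and 62.1% of negative control probe sets). The dimmest S phase gene, Mcm5, lay above 75.7%.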
